A study of Mus musculus with 2 samples.

Results

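The antioxidant enzymes described here are the products of 10 genes of the 32285 in the count tables: the superoxide dismutases Sod1 and Sod2, catalase (Cat), the glutathione peroxidases Gpx1 and Gpx4, the peroxiredoxins Prdx1, Prdx2 and Prdx6, and the thioredoxins Txn1 and Txn2. They were chosen by gene symbol, and all 10 were present in the tables. Their transcripts were measured by droplet single-cell RNA sequencing in retinas of untreated mice aged 13 weeks on the C57BLKS background. The db/db mice (Leprdb/db) carry a germline mutation of the leptin receptor gene Lepr and serve as a model of type 2 diabetes, and the control mice were wild type (Leprwt/wt, also called m/m). Retinas of 2 mice per genotype went into 1 library per genotype, so no test between genotypes was possible and no difference below has a replicate check. Differences between mice, between dissociations and between genotypes cannot be told apart.

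Superoxide dismutases turn superoxide into hydrogen peroxide, Sod1 mainly in the cytosol and Sod2 in the mitochondrial matrix. Catalase, glutathione peroxidases and peroxiredoxins then remove peroxides, the peroxiredoxins mostly with electrons that thioredoxins carry from NADPH. The retina is rich in polyunsaturated lipids, consumes much oxygen and is exposed to light, which makes photoreceptors a common subject of work on oxidative damage.

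Of the 10 genes, Gpx1 and Gpx4 encode selenoproteins, in which a TGA codon that elsewhere means stop is read as the amino acid selenocysteine of the active site. Their coding sequences around that codon are shown because they set these genes apart from the other 8, which had 0 TGA codons in frame before the stop. Each stretch is from the GENCODE M21 transcripts, 5′ to 3′, with 30 bases on each side and the selenocysteine TGA in capitals. The Gpx1 gene lies on GRCm38 chromosome 9, 108338903 to 108340343, plus strand, and its TGA is codon 47 of a coding sequence of 603 bases. The Gpx4 gene lies on chromosome 10, 80047166 to 80056439, plus strand, and its TGA is codon 129 of a coding sequence of 759 bases, a number that depends on the start site of the isoform.
Gpx1: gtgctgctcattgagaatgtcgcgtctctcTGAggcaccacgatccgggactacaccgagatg
Gpx4: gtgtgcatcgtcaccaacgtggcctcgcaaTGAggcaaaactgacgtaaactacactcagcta

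The db/db library held 33742189 unique molecular identifiers (UMIs, each standing for 1 captured transcript) over 11083 barcodes, and the wild-type library 35642274 over 10308. Of these, 10963 db/db and 10230 wild-type cells were kept, with medians of 2051 and 2314 UMIs. These are more than the 6000 or so cells loaded per library, per the labels, so not every kept barcode need be 1 intact cell, although all were treated as cells. Cells were clustered without the genes described here and named from marker genes as rod-like (8787 db/db and 7424 wild-type cells), cone-like (497 and 552), bipolar-like (505 and 716), Muller glia-like (92 and 192), and microglia or macrophage-like (62 and 67). Those 5 classes were compared between libraries, and amacrine-like (25 and 86), retinal pigment epithelium-like (16 and 46) and erythroid-like cells (40 and 23) were given as levels only. The marker lists of all 8 classes were highest in the class of their own name. A further 8.46% of db/db and 10.7% of wild-type cells carried other markers together with rod markers and were set apart. RNA of rod genes was present in every class, and whether it came from free RNA or from doublets was not tested. By the level of rod-only genes, the rod profile accounted for 41.2% of db/db and 44.1% of wild-type UMIs in cone-like cells, 28.5% and 30.4% in bipolar-like cells, 27.0% and 23.5% in Muller glia-like cells, and 23.8% and 28.3% in microglia or macrophage-like cells.

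Levels are given as UMIs per 1000000 UMIs of the class (CPM). Differences are log2 ratios of db/db over wild type, positive where db/db was higher. The intervals are at 95% and cover counting error alone. A gene counted as measured in a class with at least 50 UMIs over both libraries. Of the 50 values (10 genes in 5 classes) 41 were measured: 25 were lower and 16 higher in db/db. Sod2 in Muller glia-like cells, at 0.00 after rounding, was counted as lower. Intervals lay below 0 for 4 of them and above 0 for 1, and the other 36 included 0. In rod-like cells the intervals of 2 of 10 enzymes lay below 0 and those of 0 above it, where over all measured genes 12.5% lay below and 20.1% above. In cone-like cells 0 of 9 lay on either side (4.56% below and 4.76% above over all genes). In bipolar-like cells 1 of 9 lay below and 0 above (6.26% and 5.41%), and in Muller glia-like cells likewise 1 of 9 and 0 (5.19% and 5.94%). In microglia or macrophage-like cells 0 of 4 lay below and 1 above (11.7% and 10.6%). The log2 ratio was under 0.32 in size for 38 of the 41.

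**Figure D1:**
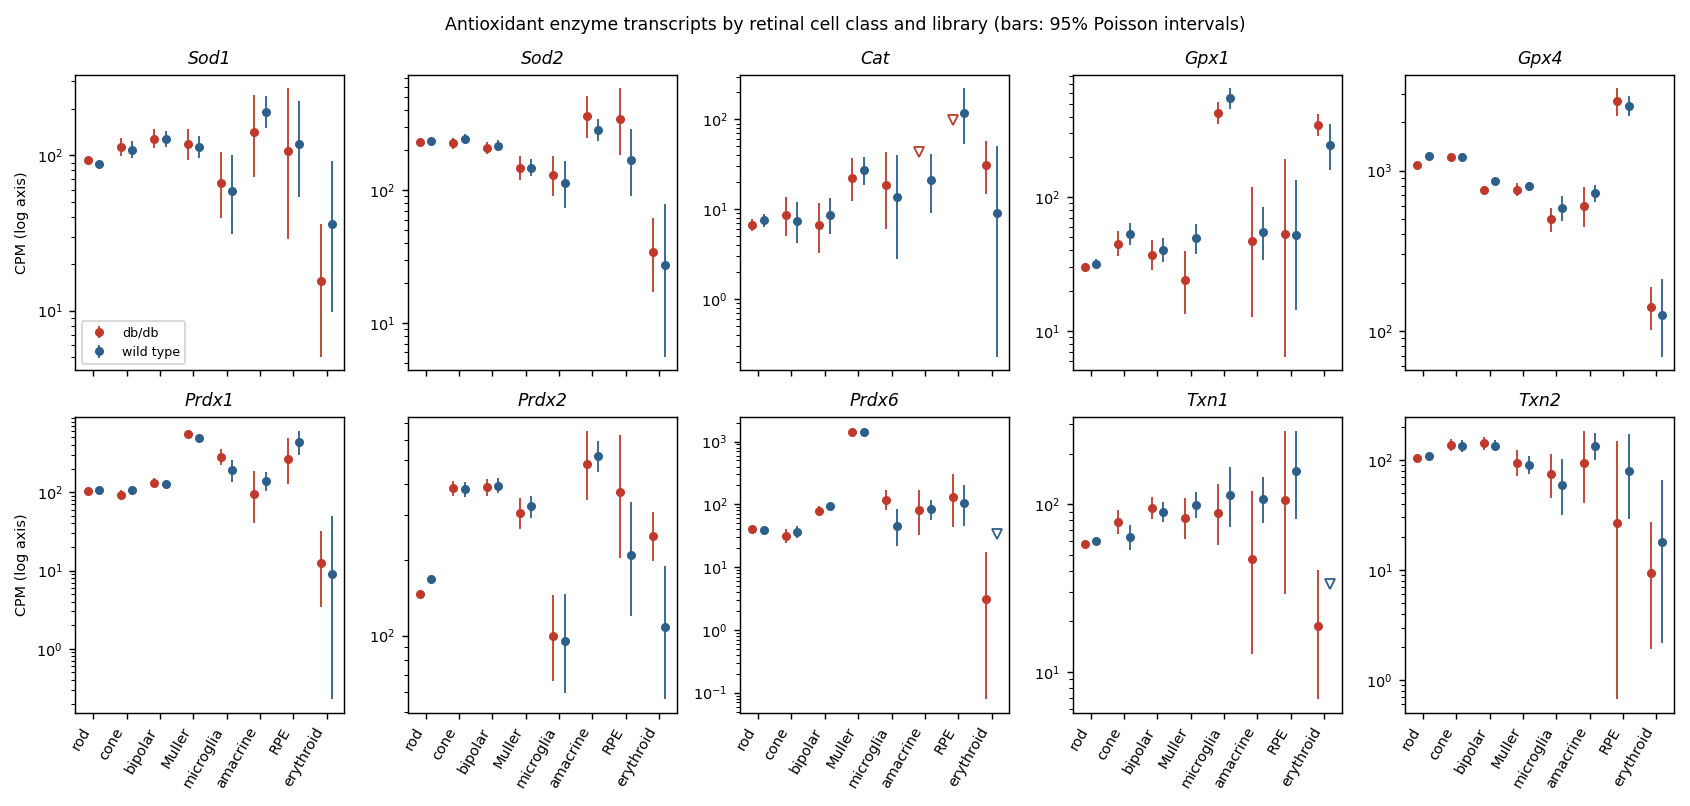
Level of each antioxidant enzyme gene (CPM, log axis, scaled separately for each gene) in 8 cell classes, with the db/db library in red on the left and the wild-type library in blue on the right of each pair; bars are 95% Poisson intervals and open triangles mark the upper bound where a gene had 0 UMIs. Prdx6 stands out in Muller glia-like cells, Gpx1 in microglia or macrophage-like and erythroid-like cells, and Gpx4 in retinal pigment epithelium-like cells, in both libraries.

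Several of the enzymes differed far more between cell classes than between the libraries. Over both libraries summed, Prdx6 was 614-fold higher in its highest than in its lowest class, Prdx1 44.5-fold, Gpx4 19.0-fold, Gpx1 15.6-fold and Prdx2 5.21-fold. On this scale erythroid-like cells were the lowest class for Sod1, Sod2, Gpx4, Prdx1, Prdx6, Txn1 and Txn2, but haemoglobin transcripts there stood at 882925 CPM in db/db and 852707 CPM in wild type, and Prdx6 there was 1 UMI. Scaled to UMIs outside haemoglobin genes, only Prdx1 and Prdx6 of these 7 were lowest in erythroid-like cells. Among the other 7 classes on that scale, the highest class stood over the lowest by 41.5-fold for Prdx6, 15.6-fold for Gpx1, 5.21-fold for Prdx2, 5.19-fold for Prdx1 and 4.86-fold for Gpx4. For Cat it was 11.2-fold. Spans were narrower for Sod1 (2.88-fold), Sod2 (2.45-fold), Txn1 (2.38-fold) and Txn2 (2.24-fold). Levels of different genes are not directly comparable, since 3′ capture can differ from gene to gene. That limit also applies to the low count of catalase and to the summed level of the members given below.

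Among the superoxide dismutases, Sod1 (chromosome 16, 90220754 to 90226329, plus strand) was highest in amacrine-like cells. It stood at 141 CPM (72.7 to 246) in db/db and 191 CPM (150.1 to 241) in wild-type amacrine-like cells. In rod-like cells Sod1 had 2289 UMIs or 93.2 CPM in db/db and 1955 UMIs or 87.8 CPM in wild type, a log2 ratio of 0.09 (0.00 to 0.17). Bipolar-like, Muller glia-like, retinal pigment epithelium-like and cone-like cells followed amacrine-like cells at 128, 115, 114 and 111 CPM over both libraries, and neighbours in that order had overlapping intervals. Rod-like cells, at 90.6 CPM, lay below cone-like cells beyond counting error. Between the libraries, the log2 ratio of Sod1 was 0.06 in cone-like, 0.01 in bipolar-like and 0.06 in Muller glia-like cells, all with intervals that included 0. Microglia or macrophage-like cells had 18 db/db and 13 wild-type Sod1 UMIs, too few to count as measured.

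Sod2 (chromosome 17, 13006846 to 13040063, plus strand), the mitochondrial enzyme, was also highest in amacrine-like cells, with 363 CPM in db/db and 286 CPM in wild type. It stood at 229 CPM in db/db and 233 CPM in wild-type rod-like cells, and at 227 and 242 CPM in cone-like cells. Neighbours in the order cone-like, rod-like, retinal pigment epithelium-like and bipolar-like cells (235, 231, 228 and 213 CPM over both libraries) overlapped. Muller glia-like cells (147 CPM) and microglia or macrophage-like cells (122 CPM) lay below bipolar-like cells beyond counting error. The difference between the libraries was close to 0 in rod-like cells (-0.03, interval -0.08 to 0.03) and in Muller glia-like cells (0.00, interval -0.38 to 0.37). It was -0.09 in cone-like, -0.06 in bipolar-like and 0.19 in microglia or macrophage-like cells, each with an interval that included 0.

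Catalase (chromosome 2, 103453849 to 103485160, minus strand), the peroxisomal enzyme that splits hydrogen peroxide, had the fewest UMIs of the 10 over all kept cells. Rod-like cells had 164 UMIs in db/db and 167 in wild type, or 6.68 and 7.50 CPM, with a log2 ratio of -0.17 (-0.49 to 0.15). Rods were the only compared class where it was measured. Muller glia-like cells stood higher, at 22.4 CPM in db/db and 27.0 CPM in wild type. Scaled to UMIs outside haemoglobin genes, Cat was highest in erythroid-like cells over both libraries summed but not in wild type, as given below. In CPM the highest level was in retinal pigment epithelium-like cells, where all 9 UMIs came from wild type (118 CPM, interval 53.9 to 224). In the 16 db/db cells of that class the count was 0, for which the interval reaches 97.8 CPM, so a difference was not detectable at this depth.

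Gpx1, the cytosolic enzyme that reduces hydrogen peroxide with glutathione, separated microglia and red blood cells from neural cells. It reached 429 CPM in db/db and 549 CPM in wild-type microglia or macrophage-like cells, and 349 and 244 CPM in erythroid-like cells. In the other classes, Gpx1 ranged from 30.9 to 53.6 CPM over both libraries. It was detected in 34 of 62 db/db and 34 of 67 wild-type microglia or macrophage-like cells (54.8% and 50.7%), against 7.52% of db/db and 8.47% of wild-type rod-like cells. After thinning each cell to 1000 UMIs these shares were 29.8% and 26.5% in microglia or macrophage-like cells and 2.87% and 3.18% in rod-like cells. Gpx1 in rod-like cells was 7.0% of its microglial level in db/db and 5.8% in wild type, whereas the microglial complement gene C1qa was at 0.00792% and 0.0113% of its own. Bipolar-like clusters ranged from 15 to 59.7 CPM, the latter on 7 UMIs in the shallowest cluster. The 2 largest clusters had intervals that did not overlap, at 15 CPM (7.47 to 26.8) and 47.3 CPM (35.2 to 62.2).

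Gpx1 alone of the 10 genes was measured and lower in db/db in all 5 compared classes. The log2 ratios were -0.08 in rod-like, -0.23 in cone-like, -0.12 in bipolar-like, -1.03 in Muller glia-like and -0.35 in microglia or macrophage-like cells. Only the Muller glia-like interval lay below 0. There, Gpx1 had 15 UMIs (24.0 CPM) in 92 db/db cells and 60 UMIs (49.1 CPM) in 192 wild-type cells, with an interval of -1.96 to -0.20. A UMI of Gpx1 was found in 13 of the db/db cells (14.1%, 7.74% to 23.0%) and in 35 of the wild-type cells (18.2%, 13.0% to 24.4%), and the binomial intervals overlapped. The highest cell held 2 UMIs in db/db and 8 in wild type. The ratio was -0.41 when the cells were clustered at a Leiden resolution of 2.0 and -1.33 after the rod profile was subtracted.

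Gpx4, which reduces lipid peroxides in membranes and guards against ferroptosis, was highest in retinal pigment epithelium-like cells, at 2704 CPM in db/db and 2542 CPM in wild type. Cone-like cells (1222 and 1212 CPM) and rod-like cells (1083 and 1243 CPM) came next. Bipolar-like, Muller glia-like, amacrine-like and microglia or macrophage-like cells followed at 819, 787, 699 and 534 CPM over both libraries. Gpx4 was detected in 80.9% of db/db and 80.3% of wild-type rod-like cells. Among bipolar-like clusters Gpx4 ranged from 551 to 1279 CPM. The highest value was in the shallowest of them (median 1186 UMIs), which held the most rod marker RNA (2.82% of UMIs). The lowest was in a cluster of 36 cells with 0.749%. The part of rod RNA in this range was not tested.

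Gpx4 was lower in db/db rod-like cells. It had 26599 UMIs in db/db and 27681 in wild type, with a log2 ratio of -0.20 (-0.22 to -0.17), or 1.15-fold. Bipolar-like cells held 1262 UMIs (756 CPM) in db/db and 1995 (865 CPM) in wild type, a ratio of -0.19 (-0.30 to -0.09). In cone-like cells the ratio was 0.01 (-0.07 to 0.09), and it was -0.07 in Muller glia-like and -0.23 in microglia or macrophage-like cells, with intervals that included 0. After the rod profile was subtracted, the ratio was -0.16 in bipolar-like and 0.15 in cone-like cells. With each rod-like cell given equal weight it was -0.10. A processed copy, Gpx4-ps2, shares 94.0% of the 31-base words in the last 500 bases of Gpx4 and had no row in the tables, so reads that fit both cannot be assigned with certainty.

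**Figure D2:**
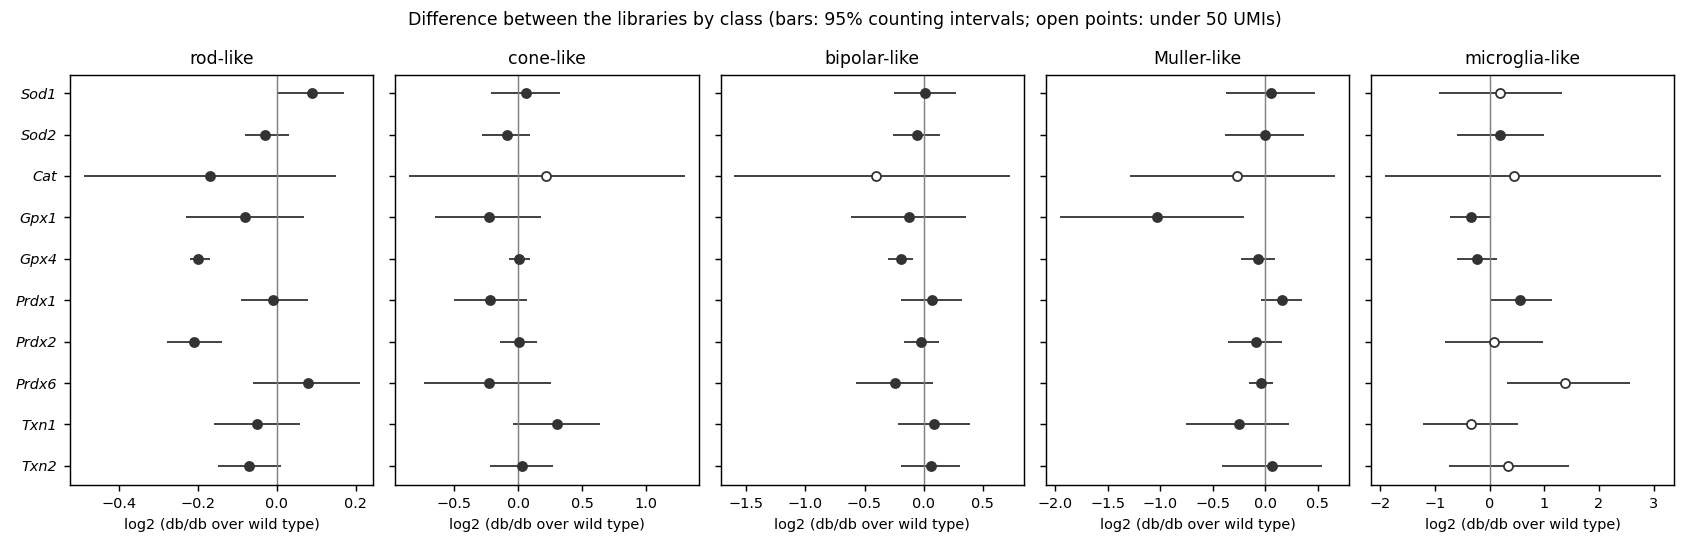
Log2 ratio of db/db to wild type for the 10 genes in the 5 compared classes, with 95% counting intervals and a separate axis range for each class; filled points had at least 50 UMIs over both libraries and open points fewer. Gpx4 and Prdx2 in rod-like cells, Gpx4 in bipolar-like cells and Gpx1 in Muller glia-like cells lie below 0, and Prdx1 in microglia or macrophage-like cells just above it.

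Among the peroxiredoxins, Prdx6 (chromosome 1, 161240112 to 161251219, minus strand), which reduces phospholipid peroxides and uses glutathione rather than thioredoxin, was concentrated in Muller glia-like cells. It stood at 1397 CPM (873 UMIs) in db/db and 1433 CPM (1751 UMIs) in wild-type Muller glia-like cells, 15.1 times its level over all kept cells. It was detected in 90 of 92 db/db and 173 of 192 wild-type Muller glia-like cells, or 97.8% and 90.1%. Retinal pigment epithelium-like cells came next, at 114 CPM over both libraries. Bipolar-like, microglia or macrophage-like and amacrine-like cells stood at 87.6, 85.6 and 83.6 CPM, with overlapping intervals. Rod-like cells had 41.1 CPM in db/db and 39.0 CPM in wild type, and 10.1% of cells in each library had a UMI. After thinning, a UMI of Prdx6 was left in 66.7% of db/db and 69.4% of wild-type Muller glia-like cells, against 4.25% and 4.00% of rod-like cells. The Prdx6 level in rod-like cells was 2.94% of the Muller glia-like level in db/db and 2.72% in wild type. For the Muller glia markers Glul, Rlbp1, Slc1a3 and Aqp4, the same share lay between 0.221% and 1.31% in db/db and between 0.253% and 1.55% in wild type.

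Prdx6 showed little difference between the libraries in the class where it was highest, with a log2 ratio of -0.04 (-0.15 to 0.08) in Muller glia-like cells. It was 0.08 in rod-like, -0.23 in cone-like and -0.24 in bipolar-like cells, with intervals that included 0. The bipolar-like level of Prdx6 was 5.66% of the Muller glia-like level in db/db and 6.54% in wild type. The same share was 5.01% and 5.26% for Glul, 4.73% and 5.26% for Rlbp1, 0.621% and 1.58% for Slc1a3, and 0.999% and 1.95% for Aqp4, all Muller glia markers. The part of Muller glia RNA in the bipolar-like level and difference was not tested. Microglia or macrophage-like cells held 32 Prdx6 UMIs (118 CPM) in db/db and 10 (45.4 CPM) in wild type, under the minimum for a measured gene. Muller glia markers moved with it in that class. All 12 markers were detected in db/db, with a summed level of 2336 CPM, and 9 of 12 in wild type, with 635 CPM, where Sox9, Abca8a and Gpr37 were at 0. The T cell markers moved too, with 4 of 4 detected in db/db (30 UMIs, 111 CPM) and all 4 (Cd3e, Cd3g, Cd3d and Trbc2) at 0 in wild type. The 30 UMIs lay in 2 db/db cells of the class, which held 4 Prdx6 UMIs, 0 Prdx1 UMIs and 0 UMIs of the microglial gene C1qa. Without these 2 cells the Prdx6 ratio was 1.24. The part of Muller glia RNA in the Prdx6 difference was not tested.

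Prdx1 (chromosome 4, 116685544 to 116700822, plus strand), a cytosolic peroxidase that takes its electrons from thioredoxin, shared the Muller glia-like peak with Prdx6. It stood at 552 CPM in db/db and 496 CPM in wild-type Muller glia-like cells, and at 265 and 432 CPM in retinal pigment epithelium-like cells. Over both libraries these classes (515 and 377 CPM) had overlapping intervals, and the same held for retinal pigment epithelium-like and microglia or macrophage-like cells (241 CPM). Rod-like cells had 105 CPM in db/db and 106 CPM in wild type. The log2 ratio of Prdx1 was -0.01 (-0.09 to 0.08) in rod-like, -0.22 in cone-like, 0.07 in bipolar-like and 0.16 (-0.04 to 0.35) in Muller glia-like cells.

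In microglia or macrophage-like cells Prdx1 was higher in db/db, with 76 UMIs (281 CPM) in db/db and 42 UMIs (191 CPM) in wild type. The log2 ratio was 0.56 with a lower bound of 0.00 and an upper bound of 1.14. A UMI was found in 26 of 62 db/db and 26 of 67 wild-type cells, or 41.9% and 38.8%. Different clusters held most of this class in the libraries: a deep cluster led by the chemokines Ccl4 and Ccl3 (median 6195 UMIs) held 34 db/db and 25 wild-type cells, and a shallow cluster led by C1qb and Ctss held 28 and 42. Without the shallow cluster the ratio was 0.50, without the 2 cells with T cell markers it was 0.61, and after thinning to 1000 UMIs it was 2.06, with a UMI left in 17 of 47 db/db and 6 of 49 wild-type cells. The median cell of the class had 4321 UMIs in db/db and 1898 in wild type, and the Muller glia markers given above were also higher in db/db. The part of depth and of Muller glia RNA in the Prdx1 difference was not tested.

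Prdx2 (chromosome 8, 84969587 to 84974834, plus strand), the other cytosolic peroxiredoxin and an abundant protein of red blood cells, stood higher in inner retinal neurons and cones than in rods. It was highest in amacrine-like cells, at 480.4 CPM in db/db and 517 CPM in wild type. Bipolar-like cells (388 and 394 CPM) and cone-like cells (384 and 382 CPM) had overlapping levels. Rod-like cells as a class were below these neurons beyond counting error, at 146 CPM in db/db and 168 CPM in wild type. In the rod-like cluster with the highest mitochondrial share, however, Prdx2 stood at 325 CPM in db/db and 381 CPM in wild type. Microglia or macrophage-like cells were lowest, at 97.9 CPM over both libraries (27 db/db and 21 wild-type UMIs). Exons of Prdx2 overlap those of Junb and Rnaseh2a on the opposite strand, and the use of strand in counting is not given in the sources used here, so some of its UMIs may belong to these genes.

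Prdx2 was lower in db/db rod-like cells, with 3576 UMIs in db/db and 3750 in wild type and a log2 ratio of -0.21 (-0.28 to -0.14). Thinned to 1000 UMIs per cell, the ratio was -0.04. In cone-like, bipolar-like and Muller glia-like cells it was 0.01, -0.02 and -0.09, each with an interval that included 0. Haemoglobin transcripts in rod-like cells stood at 43.1 CPM in db/db and 17.3 CPM in wild type. At the ratio of Prdx2 to haemoglobin in erythroid-like cells, this would carry 0.299 Prdx2 UMIs in db/db and 0.0490 in wild type. That ratio rests on 80 db/db and 12 wild-type Prdx2 UMIs, and free RNA may hold another ratio. The part of red blood cell RNA in the Prdx2 difference was not tested.

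**Figure D3:**
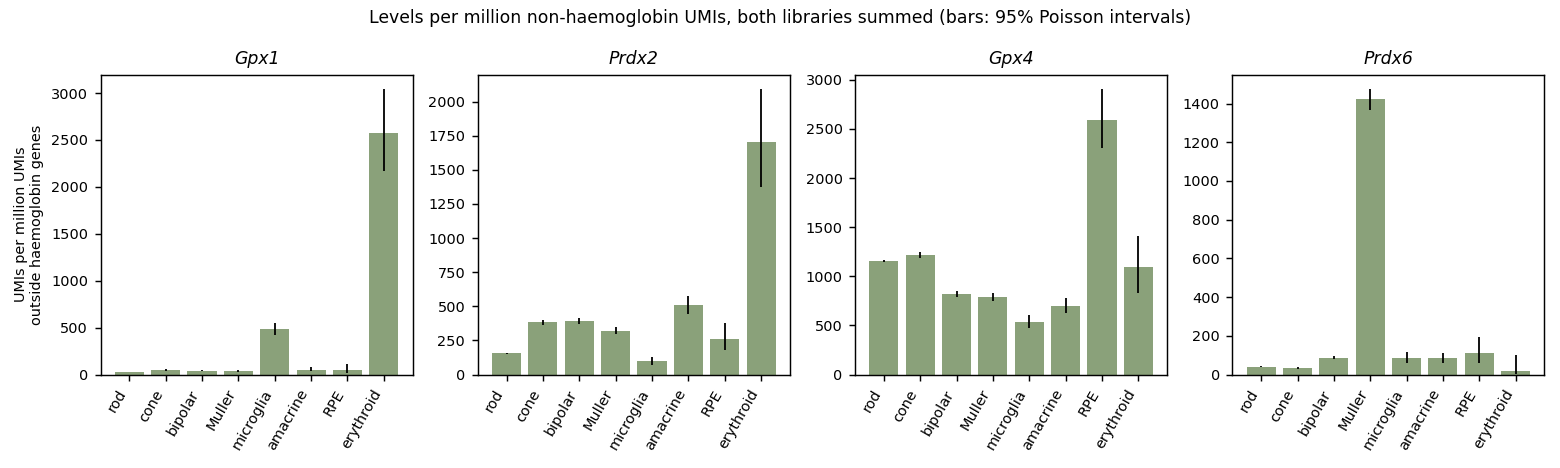
Level of 4 antioxidant enzyme genes scaled to UMIs outside haemoglobin genes (per 1000000), in 8 cell classes with both libraries summed; bars start at 0, with 95% Poisson intervals and a separate axis range for each gene. On this scale erythroid-like cells stand highest for Gpx1 (2579) and Prdx2 (1707), where on the CPM scale they stood at 322 and 213.

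Because haemoglobin filled most of each erythroid-like cell, these cells were also set on the 53898 UMIs outside haemoglobin genes, a scale chosen after seeing the data. On it, Gpx1 stood at 2579 (2168 to 3045) per 1000000 and Prdx2 at 1707 (1376 to 2093), above every other described class for both genes. Gpx4 stood at 1095. Cat, with 11 UMIs over both libraries, was also highest in erythroid-like cells, at 204 (102 to 365). That interval overlapped the interval of retinal pigment epithelium-like cells (78.9, 36.1 to 149.8). Of the 11 UMIs, 10 came from db/db (266, interval 128 to 489) and 1 from wild type (61.3, interval 1.55 to 341). In wild type, retinal pigment epithelium-like cells stood higher, at 118 (53.9 to 224). Per library, erythroid-like cells held 80 Prdx2 UMIs in db/db and 12 in wild type, and 112 and 27 Gpx1 UMIs, from 40 and 23 cells.

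The thioredoxins, which pass electrons to the peroxiredoxins, showed no interval away from 0 between the libraries in the compared classes. Txn1 (chromosome 4, 57943373 to 57956411, minus strand), the cytosolic protein, stood at 57.8 CPM in db/db and 60 CPM in wild-type rod-like cells. It was 78.4 and 63.5 CPM in cone-like cells and 95.3 and 89.8 CPM in bipolar-like cells. Retinal pigment epithelium-like, microglia or macrophage-like, amacrine-like, Muller glia-like and bipolar-like cells overlapped with their neighbours in the order, between 140.3 and 92.1 CPM over both libraries. The largest measured difference of Txn1 was in cone-like cells, at 0.30 with an interval of -0.04 to 0.64.

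Txn2 (chromosome 15, 77915047 to 77929006, minus strand), the mitochondrial thioredoxin, stood at 104 CPM in db/db and 109 CPM in wild-type rod-like cells. Bipolar-like cells (141 and 135 CPM) and cone-like cells (137 and 134 CPM) were highest. Its log2 ratios ran from -0.07 in rod-like to 0.07 in Muller glia-like cells over the 4 classes where it was measured, and all 4 intervals included 0.

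In rod-like cells 8 of the 10 genes were lower in db/db, against 42.4% of the 11726 measured genes of these cells. For 6 of these 8 the interval included 0, and in the lowest tertile of mitochondrial share (described next) 5 of the 10 were lower. Their median log2 ratio was -0.06, against 0.03 over all measured genes, and their summed level was 1895 CPM in db/db and 2085 CPM in wild type. Most of that sum was Gpx4. All 10 had log2 ratios under 0.32 in size in rod-like cells, where 5.48% of measured genes were lower and 7.68% higher by at least that much.

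In cone-like cells 4 of 9 measured members were lower in db/db (49.1% of all measured genes), and in bipolar-like cells 5 of 9 (52.6%). In Muller glia-like cells 6 of 9 were lower (46.9%), and in microglia or macrophage-like cells 2 of 4 (54.3%). These shares lay near those of all genes, apart from Muller glia-like cells. There Sod2, with a ratio of 0.00 after rounding, was counted as lower, and the count was 2 of 4 measured members after thinning. The medians were 0.01, -0.02, -0.04 and -0.02, against 0.00, -0.02, 0.02 and -0.06 over all measured genes of the same classes. Log2 ratios of at least 0.32 in size were absent among the measured members in cone-like cells (9.18% of all measured genes were lower and 10.2% higher by that much) and in bipolar-like cells (11.8% and 10.4%). The 3 beyond that size were Gpx1 in Muller glia-like cells (15.5% of measured genes lower and 17.3% higher by that much), Gpx1 in microglia or macrophage-like cells (26.8% lower) and Prdx1 in the same cells (19.1% higher).

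Rod-like cells varied in their share of mitochondrial transcripts, and several of the enzymes varied with it. Rod-like cells of both libraries were therefore split at shares of 1.60% and 4.16% into 3 tertiles, of 3285, 2579 and 2923 db/db cells and 2119, 2824 and 2481 wild-type cells from lowest to highest. Gpx4 stood at 841, 1016 and 1449 CPM from the lowest to the highest tertile in db/db and at 937, 1155 and 1606 CPM in wild type. Prdx2 stood at 98.7, 137 and 213 CPM in db/db and at 111, 156 and 231 CPM in wild type. Both were thus higher in each tertile than in the one below it. Prdx1, Txn1 and Sod2 showed the same order in both libraries. Prdx6 went the other way in db/db, at 48.7, 44.3 and 28.7 CPM. In wild type it stood at 43.8, 37.4 and 37.0 CPM, with the middle and highest tertiles nearly equal. The nuclear RNA Malat1 moved with the tertiles, at 7.73%, 6.42% and 3.70% of UMIs in db/db and 7.76%, 6.19% and 3.71% in wild type, and its part in these orders was not tested.

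**Figure D4:**
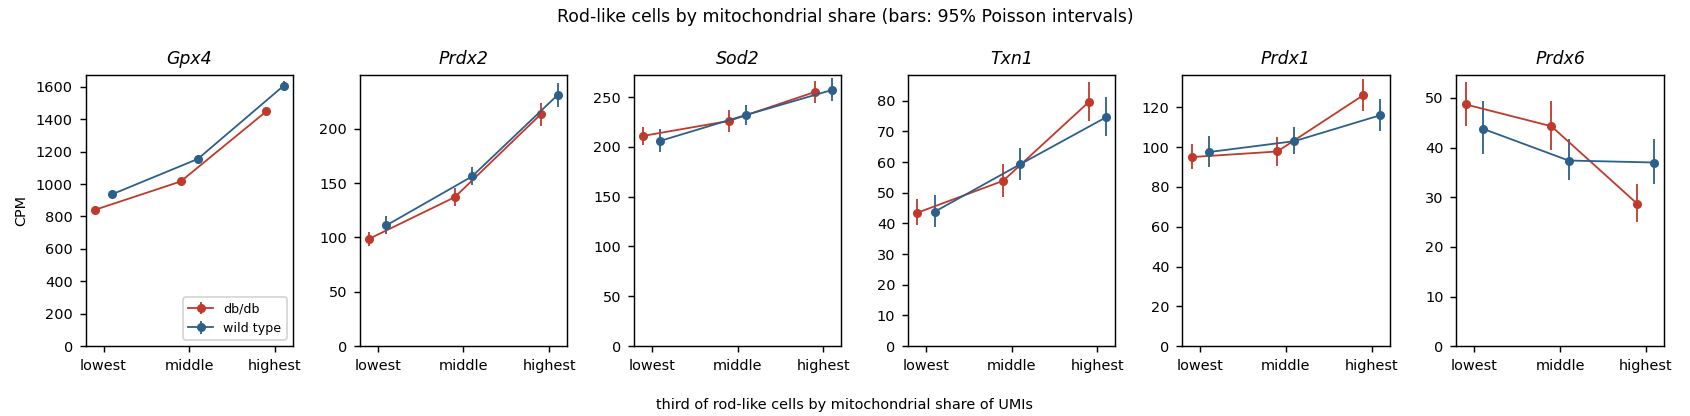
Level (CPM, axes from 0) of 6 antioxidant enzyme genes in rod-like cells of the lowest, middle and highest tertile of mitochondrial share, with db/db in red and wild type in blue and 95% Poisson intervals. Gpx4 and Prdx2 are higher in each tertile than in the one below and lower in db/db in all 3. Prdx6 is lowest in the highest tertile in db/db, while in wild type its middle and highest tertiles are nearly equal.

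Within tertiles, Gpx4 was lower in db/db in all 3, with log2 ratios of -0.15, -0.19 and -0.15 from lowest to highest, and so was Prdx2, with -0.17, -0.19 and -0.12. All 6 intervals lay below 0. Over all rod-like cells, 12.5% of measured genes had intervals below 0 and 20.1% above. Such shares were not computed within tertiles, for these intervals or for those that follow. The db/db rod-like cells also had less ribosomal protein RNA (4.15% of UMIs, against 4.84% in wild type) and more Malat1 (6.09%, against 5.81%), and the part of these in the difference was not tested. Prdx6 changed sign over the tertiles, at 0.15, 0.24 and -0.37, with an interval of 0.02 to 0.47 in the middle and -0.63 to -0.11 in the highest. Gpx1 was lower in db/db in the highest tertile (-0.30, interval -0.57 to -0.03). Sod1 was higher in db/db in the lowest tertile (0.29, interval 0.12 to 0.45) and close to 0 in the middle and highest (0.01 and 0.03). Catalase was lower in the lowest tertile, with 65 UMIs in each library and a ratio of -0.64 (-1.15 to -0.12).

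The rod-like cluster with the highest mitochondrial share held 769 db/db and 561 wild-type cells (medians 10.4% and 8.70%). Malat1 made up 0.637% of its db/db and 0.608% of its wild-type UMIs, against 6.09% and 5.81% over all rod-like cells. Gpx4 reached 1979.7 CPM in db/db and 2265 CPM in wild type there, and Prdx2 325 and 381 CPM. In the deepest rod-like cluster (1914 and 1599 cells) the levels were 846 and 983 CPM for Gpx4 and 109 and 121 CPM for Prdx2.

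Another 26 genes of the same pathways were examined in the same way. Of the 20 measured in rod-like cells, 11 were lower and 9 higher in db/db, with a median of -0.05, where 42.4% of all measured genes were lower and the median was 0.03. Intervals lay below 0 for 2 and above 0 for 4 of the 20, beside 12.5% and 20.1% of all genes. The mitochondrial and peroxisomal peroxiredoxin Prdx5 was lower, at 119 CPM in db/db and 137 CPM in wild type (-0.20, interval -0.27 to -0.13), as was the glutaredoxin Glrx3 (-0.15, interval -0.25 to -0.04). Higher in db/db were Msra (0.32), which repairs oxidised methionine, the glutaredoxins Glrx (0.30) and Glrx5 (0.21), and Srxn1 (0.23), the sulfiredoxin that restores overoxidised peroxiredoxins. The other 14 measured genes had intervals that included 0.

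**Figure D5:**
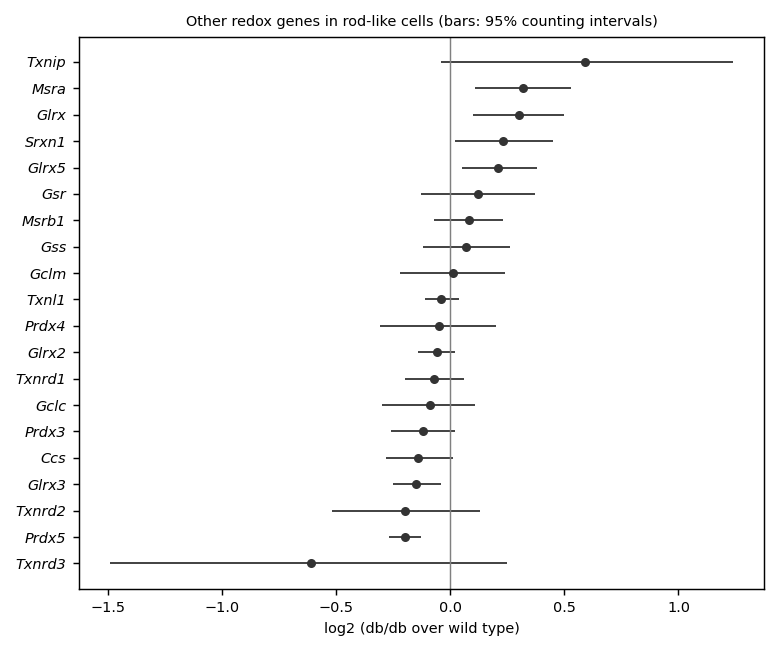
Log2 ratio of db/db to wild type in rod-like cells for the 20 measured genes of the thioredoxin, glutathione and methionine repair pathways outside the 10 enzymes, with 95% counting intervals. Prdx5 and Glrx3 lie below 0, and Msra, Glrx, Srxn1 and Glrx5 above it.

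In the other classes 5 of these measured pathway genes had intervals away from 0, 1 below it and 4 above, beside the shares of all genes given above for each class. In cone-like cells Glrx was higher in db/db, with 39 UMIs in db/db and 23 in wild type (0.90, interval 0.12 to 1.71), and the thioredoxin-like gene Txnl1 was lower (-0.28, interval -0.53 to -0.02). The mitochondrial thioredoxin reductase Txnrd2 was higher in bipolar-like cells (0.78, interval 0.03 to 1.54), and Prdx4, the peroxiredoxin of the endoplasmic reticulum, in Muller glia-like cells (0.61, interval 0.06 to 1.15). In microglia or macrophage-like cells Srxn1 stood at 163 CPM in db/db and 77.1 CPM in wild type (1.08, interval 0.24 to 1.98), beside the Prdx1 difference given above. The 2 cells with T cell markers held 0 Srxn1 UMIs, and the part of depth and Muller glia RNA, both higher in db/db in this class, was not tested. The medians of the measured pathway genes were -0.11 in cone-like (13 genes), -0.04 in bipolar-like (16), -0.14 in Muller glia-like (13) and 0.48 in microglia or macrophage-like cells (4), against 0.00, -0.02, 0.02 and -0.06 over all measured genes. With no UMI minimum the microglia or macrophage-like median was 0.05, over 21 genes.

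Across 16 profiles (8 classes in each library), the genes whose log2(CPM + 1) was most like each enzyme were listed among 8057 genes with at least 1000 UMIs. Profiles of 1 library may share free RNA, and the low levels in erythroid-like cells weigh on every coefficient, so these are descriptions. Prdx6 was most like Cdon, Rcn2 and Prdx1, with Pearson coefficients of 0.95, 0.94 and 0.93. Gpx1 was most like Pabpc1 (0.75) and the complement genes C1qc (0.72) and C1qa (0.71). Prdx2 was most like Psd3, Tcaf1 and Sphkap (0.92, 0.90 and 0.89), and Sod1 most like Sptbn1, Fkbp3 and Dynlrb1 (0.98 each). Among the 10 genes themselves, Sod1 and Sod2 were at 0.87, and Gpx1 was negative with the other members except Cat, down to -0.74 with Sod1.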

How the data were processed

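The deposited values were raw UMI counts per gene and barcode from cellranger 6.0.1, per the file headers, and the submitters' processing notes name Cell Ranger and mm10. Annotation release, cell calling rule and strand use are not given in the sources used here. Per the labels, each library was loaded with about 6000 cells to recover about 3000. Positions came from GENCODE M21 (GRCm38), which held 32235 of the 32285 gene IDs. Cells with at least 200 genes and at most 20% mitochondrial UMIs were kept. That gene minimum was missed by 7 db/db and 1 wild-type barcodes, and the mitochondrial limit by 113 and 77. The libraries shared 26 barcode sequences. Scrublet called 2 db/db and 0 wild-type cells, too few for a caller that worked, so doublets largely stayed in.

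Both libraries were clustered together (scanpy 1.11.5, leidenalg 0.10.2; 10000 counts per cell, 2000 variable genes without the 10 enzymes and 26 pathway genes, 40 components, 15 neighbours weighted by shared neighbours, resolution 1.0), with a second round outside rod clusters. A name needed at least 3 markers at 2-fold. Second-round clusters at or above 75% of the rod level of rod markers (5.46% of UMIs, so 4.09%) were set apart as mixed, a limit set after seeing the data. A shallow cone-like cluster lay just under it, at 3.80%. UMI sums of each class and library were scaled to 1000000. Intervals are exact Poisson, exact conditional binomial for ratios and Clopper-Pearson for shares (scipy 1.17.1). They cover counting error only, and 3 UMIs stood in for 0 in any ratio, with no ratio where the other library had 3 or fewer. On simulated rod-like counts the ratio intervals covered the true ratio for 10155 of 10651 genes (95.3%). That checks the calculation only and cannot speak to variation between mice or libraries. All 10 enzymes are named in every compared class, with up to 4 pathway genes per direction, by the interval bound nearest 0. The members, the gene lists and the marker lists were chosen with earlier results of these data known. Thresholds of the alternative marker gate were set after seeing the data.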

Additional observations from a re-analysis of the deposited data

How the results depend on the processing

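No paired analysis was possible because each genotype had 1 library. The median log2 ratio of the 10 enzymes moved little under the alternatives in rod-like cells, between -0.11 and 0.00. Across cone-like, bipolar-like and Muller glia-like cells it stayed between -0.12 and 0.07. In microglia or macrophage-like cells it moved more, between -0.29 and 0.18 (-0.02 otherwise). The number of enzymes lower in db/db was 5 in the lowest tertile of rod-like cells (8 in all rods). In Muller glia-like cells it was 3 with equal weight per cell and 2 after thinning (6 otherwise), and in microglia or macrophage-like cells 1 by the marker gate, 1 by the gate without a mitochondrial limit and 4 at resolution 2.0 (2 otherwise). The number of measured enzymes differed from the main count in some of these. The median of the other pathway genes was -0.27 in bipolar-like cells after thinning and 0.07 in Muller glia-like cells with equal weight. In microglia or macrophage-like cells the ratio of Cat was -1.52 with equal weight (0.44 otherwise) and could not be given after thinning, which left at most 3 UMIs per library, and that of Txn1 1.23 after thinning (-0.35 otherwise). The cause of these shifts was not tested. Gpx4 in rod-like cells stayed between -0.23 and -0.10, Prdx2 in rod-like cells between -0.25 and -0.04, Gpx4 in bipolar-like cells between -0.26 and -0.15, and Prdx6 in microglia or macrophage-like cells between 0.55 and 2.65. Settings without the shallow cone-like or microglia cluster or the cells with T cell markers were added after seeing the data. Classes of few UMIs limit what can be seen.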
